A study of Homo sapiens with 10 samples.

Results

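The 8 arrays of 4 ORC mutant clones of HCT116 were compared, as 1 group, with the 2 arrays of wild-type (WT) HCT116, out of 10 arrays in all. Each array was put in the mutant or the WT group by its label alone. HCT116 is an established human colorectal carcinoma line with an epithelial origin. The clones ORC1B14 and ORC1BP32 carry a mutated ORC1 and the clones ORC2B2 and ORC2BP8 a mutated ORC2, while the WT line has neither label. All 5 lines were grown without treatment, and each has 1 array titled biological replicate 1 and 1 titled biological replicate 2. The labels call the mutants cell lines and give neither the kind of mutation nor how each line was derived. WT is a single line, so a difference between mutated and unmutated ORC genes and a difference between this WT stock and all other stocks cannot be told apart. The titles call the replicates biological but do not say whether they were separate cultures, so the p-values measure the spread between these arrays.

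The proteins ORC1 and ORC2 belong to the origin recognition complex, a machine that sits on replication origins. With CDC6 and CDT1 it loads the MCM helicase onto DNA in G1 phase, a step called licensing, and the loaded helicase is switched on in S phase by CDC45 and the GINS complex. Many genes of licensing, of the replication fork and of nucleotide synthesis are transcribed together before S phase by E2F factors. A separate programme, the integrated stress response, acts through the transcription factor ATF4 on genes for amino acid synthesis, amino acid transport and tRNA charging.

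Each array reported log2 expression values for 53617 probe sets, of which 16098 carried a gene name and stood for 14884 genes. A gene was tested when its probe set lay at or above its array's median on at least 2 arrays, which left 10797 genes. Array medians lay between 3.94 and 3.96 for replicate 1 and between 3.87 and 3.89 for replicate 2. Arrays from the same line correlated at 0.979 to 0.984, and those from different lines at 0.968 to 0.989. None of ORC1 to ORC6 was named (0 of 6), so the genotypes were not checked against the mutated genes. Of 13 epithelial markers of the labelled tissue 9 were named, and these 9 lay at or above the median on every array. The intestinal markers among them were low. CDX2 lay between 5.42 and 5.74 and CDX1 between 4.54 and 5.02 on mutant arrays. VIL1 lay between 4.10 and 4.44 on mutant arrays and at 4.19 and 3.93 on WT arrays, close to the median. The kidney and neural marker PAX2 was higher than these, at 5.99 to 6.69 on mutant arrays. EPCAM lay between 9.75 and 10.46 on the mutant arrays and at 10.26 and 10.17 on the WT arrays, and the summed log2 level of the 9 named epithelial markers was 67.2 to 72.0 on mutant arrays and 67.0 to 70.0 on WT arrays. Of the markers of other cell types, 2 of 3 named fibroblast genes (DCN and LUM), 2 of 3 blood genes (CD14 and LYZ), 3 of 5 hepatocyte genes, 1 of 5 lung and breast genes and 0 of 2 kidney and neural genes were below the median on every array. The fibroblast marker THY1, at 4.17 to 4.82 on mutant arrays and 4.82 and 4.16 on WT arrays, and the blood marker CD68, at 7.73 to 9.25 on mutant arrays and 7.76 and 8.24 on WT arrays, were above it on every array. None of any marker list (0) was called between mutant and WT.

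The first question was which genes moved alike in the 4 clones. By limma with the replicate number as a block and a Benjamini-Hochberg adjusted p under 0.05, 304 genes (2.82%) were called, 165 higher (1.53%) and 139 lower (1.29%) in the mutant arrays. A called gene was counted as moving alike when each clone changed in the direction of the pooled change and by at least 0.5 of its size. This held for 302 genes (2.8%), of which 164 were higher (1.52%) and 138 lower (1.28%). For each of the 304 called genes, 8 of 8 mutant arrays lay on the same side of the WT array with their replicate number. Genes were called on these same arrays with the spread between clones in the residual, which largely fixes both counts. With each clone set singly against WT, 27 of the 302 were called in all 4 clones and 72 in no clone. Mutant and WT arrays did not overlap for 283 of the 304 called genes, against 1607 (14.9%) of all genes tested. Of these 1607, 859 (7.96% of genes tested) had the mutant arrays above and 748 (6.93%) had them below. The lower genes included more large changes, with 53 lower and 17 higher genes of at least 1 log2 unit in size, and the median change of called genes was 0.72 for the higher ones and -0.92 for the lower ones. Across all genes tested the median change was 0.04 log2 units. Called genes below the array median on all 8 mutant arrays numbered 4, with ANKRD22 and MIR616 among them. These passed the filter for testing only through the 2 WT arrays, where they were higher. A further 1 called gene was below the median on both WT arrays.

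These counts rest on the WT arrays and on how arrays of a clone are treated. Without WT replicate 1 limma called 11 genes (1109 at an unadjusted p under 0.05) and without WT replicate 2 it called 1 (1198 at an unadjusted p under 0.05), against 2209 genes at that unadjusted p with all arrays. Without ORC1BP32 replicate 1 there were 167 calls, without ORC1B14 replicate 2 there were 137, and without ORC2B2 replicate 2 there were 163. Without the replicate block 134 genes were called, 70 higher and 64 lower. When each line counted as 1 sample, limma called 7 genes, all lower (1707 at an unadjusted p under 0.05). They were ADGRF1, MIR548I1, MIR548I2, TRIB3, ANKRD22, SEC31B and GPR15, a G protein-coupled receptor outside the 304. GPR15 changed by -2.23 (limma adjusted p = 0.0561 in the pooled test), but by -0.30 within replicate 1 and -4.17 within replicate 2. For most genes described in full the change is therefore also given within replicate 1 and within replicate 2. Each of these values is also the one obtained when the other WT array was left out. Of the 52 genes named by rule, ADGRF1, MCM4, RBCK1 and FGF19 kept their call without WT replicate 1, and only ADGRF1 did without WT replicate 2. Without the block 37 of the 52 kept their call, and likewise 37 with line as a random block, which allows for arrays of a clone that are alike. The call was lost in both settings for ADGRG6, ANTXR2, CARS1, CDC25A, EXO1, INSIG1, KLK6, KRT80, LURAP1L, PLK1, SEC61B and TRIM38. It was lost without the block for ADAM20P1, FEN1 and GINS2, and with the random block for BAX, CRELD2 and SYT1. In these bulk RNA samples, fewer cells that express a gene and less of its RNA per cell cannot be told apart.

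**Figure D1:**
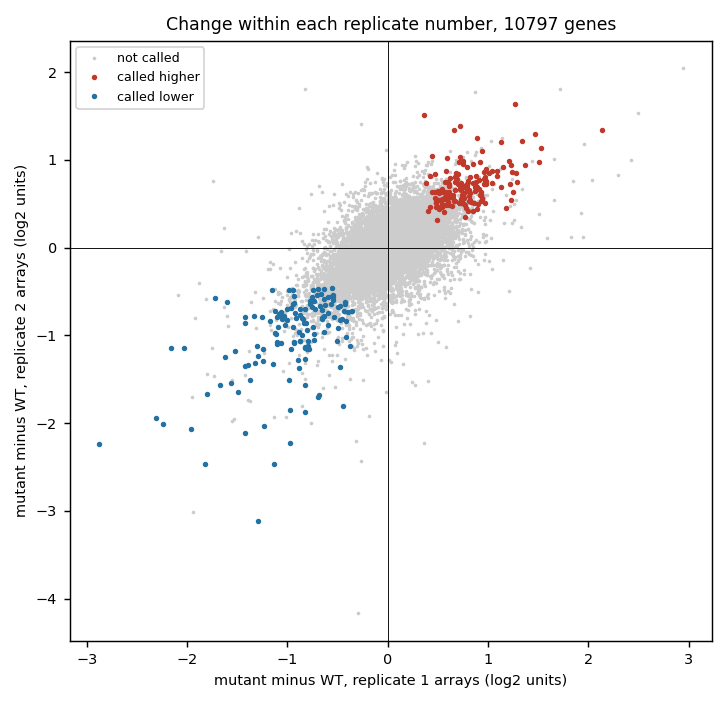
Change of each of the 10797 genes tested, mutant minus WT in log2 units, within the replicate 1 arrays (horizontal axis) and within the replicate 2 arrays (vertical axis), with genes called higher and lower in colour. Called genes were chosen on these same arrays, which largely fixes their sign on both axes. Over all genes 71.1% have the same sign on both (Pearson r = 0.621 across genes, which are not independent replicates).

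Several genes of origin licensing were higher in the mutant clones. Of 12 tested members of the licensing and MCM list, 6 rose and none fell (0), beside 1.53% higher and 1.29% lower of all genes tested. All 12 changes were above 0, beside 5980 of all 10797 genes tested. Their median was 0.71 log2 units against 0.04 over all genes. MCM2, MCM4, MCM5 and MCM7 encode subunits of the replicative helicase. MCM5 had log2 values between 8.49 and 9.41 with a median of 8.92 on the 8 mutant arrays, against 7.39 and 8.23 on the WT arrays. Every mutant array was above both WT arrays, and the pooled change was 1.15 (SE 0.15, limma adjusted p = 0.00715), with 1.37 within replicate 1 and 0.94 within replicate 2. The change of MCM5 was nearly the same size in each clone, at 1.16 (ORC1B14), 1.12 (ORC1BP32), 1.20 (ORC2B2) and 1.14 (ORC2BP8). MCM2 lay between 8.16 and 9.0002 (median 8.49) on mutant arrays and at 7.17 and 7.71 on WT arrays, a change of 1.09 (SE 0.16, limma adjusted p = 0.0118). The mutant and WT arrays again did not overlap, and the change was 1.23 within replicate 1 and 0.95 within replicate 2.

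For MCM4 the mutant arrays lay between 9.27 and 9.72 (median 9.44) and the WT arrays at 8.47 and 8.32. The change of 1.07 (SE 0.14, limma adjusted p = 0.00577) kept its call without WT replicate 1, at 1.25. The loading factor CDC6 lay between 9.08 and 9.49 (median 9.30) on mutant arrays and at 8.16 and 8.47 on WT arrays, with a change of 0.98 (SE 0.12, limma adjusted p = 0.00577), 1.09 within replicate 1 and 0.88 within replicate 2. MCM7 rose by 0.76 and MCM10, which takes part in switching the helicase on, by 0.85. Members without a call had changes of 0.66 for MCM6 (limma adjusted p = 0.0524), 0.56 for CDT1 (limma adjusted p = 0.149), 0.43 for MCM3, 0.38 for the kinase CDC7, 0.33 for MCMBP and 0.31 for DBF4.

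The replication fork list behaved alike, with 9 of 16 tested members higher, none lower (0) and a median of 0.59. Of all genes tested 1.53% were higher and 1.29% lower. The list has 35 genes, and its RFC, DNA polymerase, primase and RPA genes were not named on the array. Without the replicate block 5 of the 16 were called. With a whole clone left out it was 4 without ORC2B2, 6 without ORC1BP32, 8 without ORC2BP8 and 10 without ORC1B14. GINS2, a subunit of the GINS complex, lay between 7.01 and 8.41 (median 8.22) on mutant arrays and at 6.32 and 7.21 on WT arrays. ORC2BP8 replicate 1 was the lowest mutant array and lay below WT replicate 2, so the groups overlapped, and the pooled change was 1.33 (SE 0.25, limma adjusted p = 0.0223), with 1.53 within replicate 1 and 1.14 within replicate 2. The call of GINS2 was lost without the replicate block and without clone ORC2B2. FEN1, the nuclease that trims Okazaki fragments, lay between 7.36 and 8.28 (median 7.84) on mutant arrays and at 6.32 and 7.35 on WT arrays, a change of 1.01 (SE 0.16, limma adjusted p = 0.0149). The lowest FEN1 mutant array was just above WT replicate 2, and the change was 1.28 within replicate 1 and 0.75 within replicate 2, with no call without the replicate block. PCNA, the sliding clamp, lay between 9.49 and 10.10 (median 9.85) on mutant arrays and at 8.97 and 9.21 on WT arrays, and rose by 0.73 (SE 0.12, limma adjusted p = 0.0141), 0.73 within replicate 1 and 0.74 within replicate 2. The helicase RECQL4 rose by 0.87, GINS1 by 0.78, the hemimethylated DNA reader UHRF1 by 0.71, the helicase cofactor CDC45 by 0.62, the fork protection gene TIMELESS by 0.57 and the maintenance methyltransferase DNMT1 by 0.48.

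Of 22 tested members of the G1/S, E2F and nucleotide synthesis list, 7 were called higher and none lower (0), and 4 were called without the replicate block. The list median was 0.42, with 0.45 within replicate 1 and 0.27 within replicate 2. Of the 22 changes 19 were above 0, beside 5980 of all 10797 genes tested, and the lowest was -0.77. The transcription factor E2F1 lay between 6.98 and 7.46 (median 7.14) on mutant arrays, against 6.06 and 6.45 on WT arrays. All mutant arrays were above both WT arrays, with a change of 0.91 (SE 0.16, limma adjusted p = 0.0157), 1.13 within replicate 1 and 0.70 within replicate 2. Thymidylate synthase (TYMS) was at 10.23 to 10.73 on mutant arrays and at 9.40 and 9.86 on WT arrays, a change of 0.85 (SE 0.14, limma adjusted p = 0.0147), 0.97 within replicate 1 and 0.74 within replicate 2. CDC25A, the phosphatase that activates CDK2, changed by 0.85 (limma adjusted p = 0.0338) and lost its call also without the replicate block, with line as a random block, without ORC1BP32 replicate 1 or ORC1B14 replicate 2, at 0.75 to 0.96 over the alternatives. The cyclin CCND3 rose by 0.72, E2F2 by 0.69, the ribonucleotide reductase subunit RRM2 by 0.65 and CDK2 by 0.48. Over the licensing, fork and G1/S lists together, 22 of 50 tested genes (44.0%) were higher and 0 lower, beside 1.53% and 1.29% of all genes tested. This count was 1 without WT replicate 1, 0 without WT replicate 2 and 0 on line means, while the median of the licensing list was 0.66 and 0.76 in the first 2 of these settings.

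**Figure D2:**
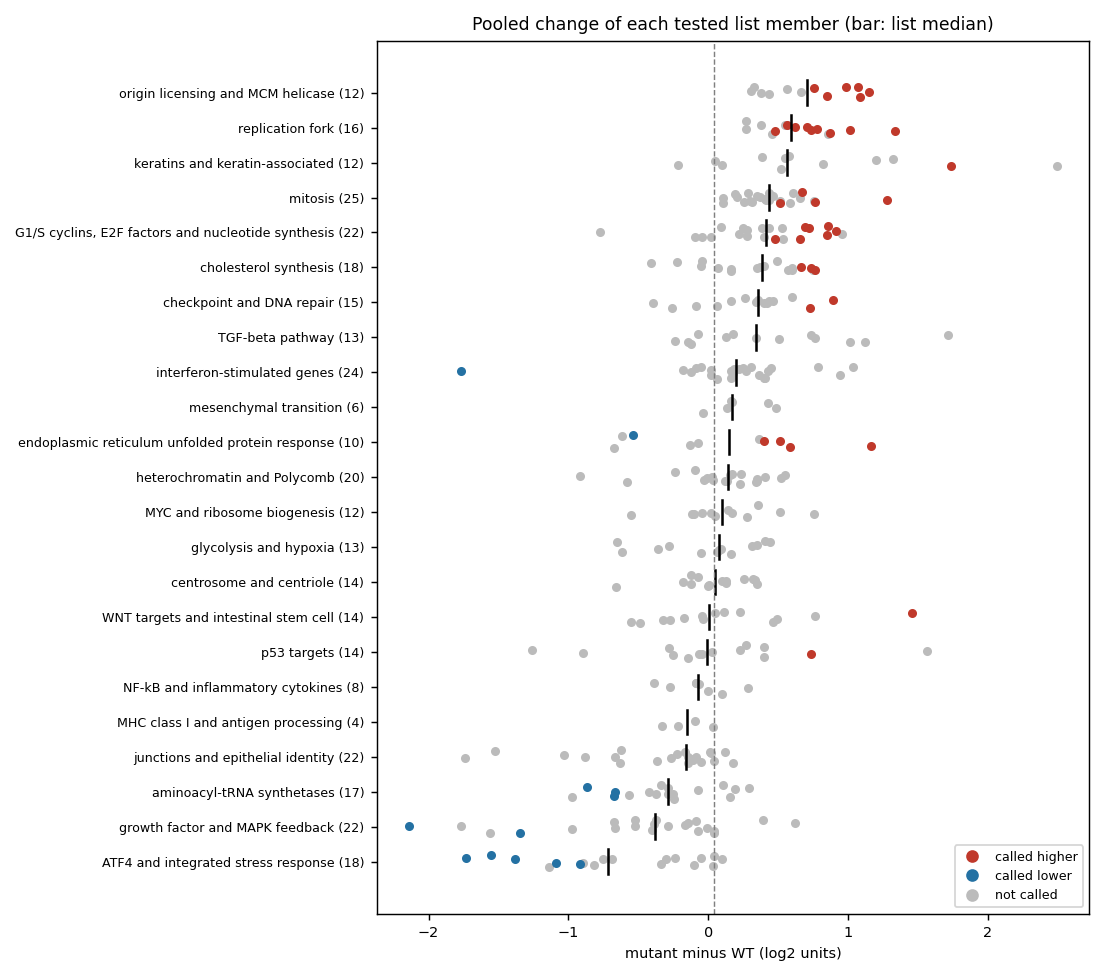
Pooled change, mutant minus WT in log2 units, of every tested member of each gene list (number tested in brackets), with called members in colour, a bar at the list's median and a dashed line at the median of all genes, 0.04. All 12 licensing and all 16 fork members lie above 0, and 15 of 18 ATF4 members lie below 0. Of all 10797 genes tested 5980 lie above 0.

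Since these genes moved together, the 250 bases before their RefSeq transcription start (GRCh38.p14) were searched on both strands for TTTNNCGC. This is a loose form of the E2F site, with N as any base. Among called genes of the 3 lists, 18 of 22 had a promoter in the RefSeq table and 8 of the 18 (44.4%) held a match, against 5 of 22 uncalled members of the same lists (22.7%), 24 of 146 genes called higher (16.4%), 695 of 8245 genes tested (8.43%) and 1618 of 27305 promoters of the table (5.93%). The promoters of 5 of these 8 are printed 5′ to 3′ on the gene's strand, ending at the base before the start, with matches in capitals. The position and number of matches can so be seen beside the changes above. In E2F1 there are 4 matches, of which the last 2 overlap and form 1 run of capitals. A match is a run of letters and not a measured binding site. Among the called genes of the 3 lists, CDC6, MCM2, MCM10, CDC45, GINS1, FEN1, TIMELESS, DNMT1, CCND3 and RRM2 held no match. MCM4, MCM5, RECQL4 and CDK2 had no promoter in the RefSeq table.
E2F1, chr20:33686386-33686635, minus strand: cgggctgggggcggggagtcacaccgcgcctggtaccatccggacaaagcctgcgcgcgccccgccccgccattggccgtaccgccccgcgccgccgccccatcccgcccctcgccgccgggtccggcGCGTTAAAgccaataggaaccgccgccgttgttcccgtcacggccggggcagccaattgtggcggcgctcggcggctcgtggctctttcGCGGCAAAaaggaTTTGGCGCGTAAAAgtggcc
GINS2, chr16:85688955-85689204, minus strand: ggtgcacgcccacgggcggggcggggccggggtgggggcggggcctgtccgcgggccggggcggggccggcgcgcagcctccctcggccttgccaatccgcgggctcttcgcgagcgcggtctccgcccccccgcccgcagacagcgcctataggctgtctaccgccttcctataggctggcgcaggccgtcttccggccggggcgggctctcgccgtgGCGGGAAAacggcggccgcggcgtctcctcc
MCM7, chr7:100101398-100101647, minus strand: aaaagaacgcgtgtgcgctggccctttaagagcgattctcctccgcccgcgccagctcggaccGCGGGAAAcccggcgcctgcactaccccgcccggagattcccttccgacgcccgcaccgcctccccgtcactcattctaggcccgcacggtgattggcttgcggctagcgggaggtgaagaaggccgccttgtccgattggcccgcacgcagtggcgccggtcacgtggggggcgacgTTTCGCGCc
PCNA, chr20:5126623-5126872, minus strand: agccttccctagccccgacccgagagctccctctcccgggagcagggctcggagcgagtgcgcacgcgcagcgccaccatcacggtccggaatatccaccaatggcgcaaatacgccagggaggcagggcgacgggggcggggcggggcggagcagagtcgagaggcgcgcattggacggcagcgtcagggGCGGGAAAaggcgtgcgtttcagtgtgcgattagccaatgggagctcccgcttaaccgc
TYMS, chr18:657403-657652, plus strand: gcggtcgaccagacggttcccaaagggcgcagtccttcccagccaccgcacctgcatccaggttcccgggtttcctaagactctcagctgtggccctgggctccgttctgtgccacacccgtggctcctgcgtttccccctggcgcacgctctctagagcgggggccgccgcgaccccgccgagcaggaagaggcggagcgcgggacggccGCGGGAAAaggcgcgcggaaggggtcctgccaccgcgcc
The E2F1 matches begin 122, 33, 20 and 14 bases before the start, the MCM7 matches 187 and 9 bases, and the single matches of GINS2, PCNA and TYMS 31, 59 and 39 bases.

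Among mitotic genes 4 of 25 tested members rose and none fell (0), beside 1.53% higher of all genes tested. All 25 changes were above 0 (median 0.43), beside 5980 of all 10797 genes tested. MYBL2, a transcription factor that acts with FOXM1 on mitotic genes and is itself an E2F target, lay between 8.60 and 9.54 (median 8.92) on mutant arrays and at 7.38 and 8.001 on WT arrays. The groups did not overlap, and the change of 1.28 (SE 0.14, limma adjusted p = 0.00246) was 1.34 within replicate 1 and 1.22 within replicate 2. FOXM1 lay between 8.90 and 9.29 on mutant arrays and at 8.21 and 8.46 on WT arrays, a change of 0.76 (SE 0.14, limma adjusted p = 0.0157), with 0.92 within replicate 1 and 0.60 within replicate 2. The kinase TTK rose by 0.52. The kinase PLK1 changed by 0.67 (limma adjusted p = 0.0338) but lost its call also without the replicate block, with line as a random block, without ORC1BP32 replicate 1 or ORC1B14 replicate 2, at 0.52 to 0.83 over the alternatives. MKI67, the antigen of proliferating cells, changed by 0.19 (limma adjusted p = 0.502). The count of 4 mitotic calls was 2 without the replicate block, with line as a random block, without ORC1BP32 replicate 1 or ORC1B14 replicate 2 and 7 without ORC1B14 replicate 1.

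In the checkpoint and DNA repair list 2 of 15 tested genes were higher and none lower (0), beside 1.53% higher of all genes. RAD54L, a motor protein of homologous recombination, lay between 6.96 and 7.52 on mutant arrays and at 6.41 and 6.71 on WT arrays, a change of 0.73 (SE 0.14, limma adjusted p = 0.0203), 0.78 within replicate 1 and 0.69 within replicate 2. EXO1, an exonuclease of DNA repair, lay between 7.77 and 8.95 on mutant arrays and at 7.22 and 8.09 on WT arrays. Its groups overlapped, and its change of 0.89 (SE 0.20, limma adjusted p = 0.0405) passed no longer without the replicate block, with line as a random block, without ORC1BP32 replicate 1, ORC1B14 replicate 2, ORC2B2 replicate 2 or either ORC2BP8 array, at 0.74 to 1.04 over the alternatives. DCLRE1B, the nuclease Apollo of telomere ends, belongs to no list and was among the 12 highest genes. It lay between 7.82 and 8.61 (median 8.24) on mutant arrays and at 6.82 and 7.49 on WT arrays, a change of 1.10 (SE 0.15, limma adjusted p = 0.00766), 1.21 within replicate 1 and 0.98 within replicate 2. Among p53 targets 1 of 14 tested genes was called (1.53% of all genes were higher and 1.29% lower), the cell death effector BAX, at 0.74 (SE 0.16, limma adjusted p = 0.0338). The list has 25 genes, and CDKN1A, MDM2, FAS, DDB2 and GADD45A were among those not named on the array. BAX lay between 6.24 and 6.74 on mutant arrays and at 5.71 and 5.67 on WT arrays, and also lost its call with line as a random block or without ORC1B14 replicate 2, at 0.69 to 0.80 over the alternatives.

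**Figure D3:**
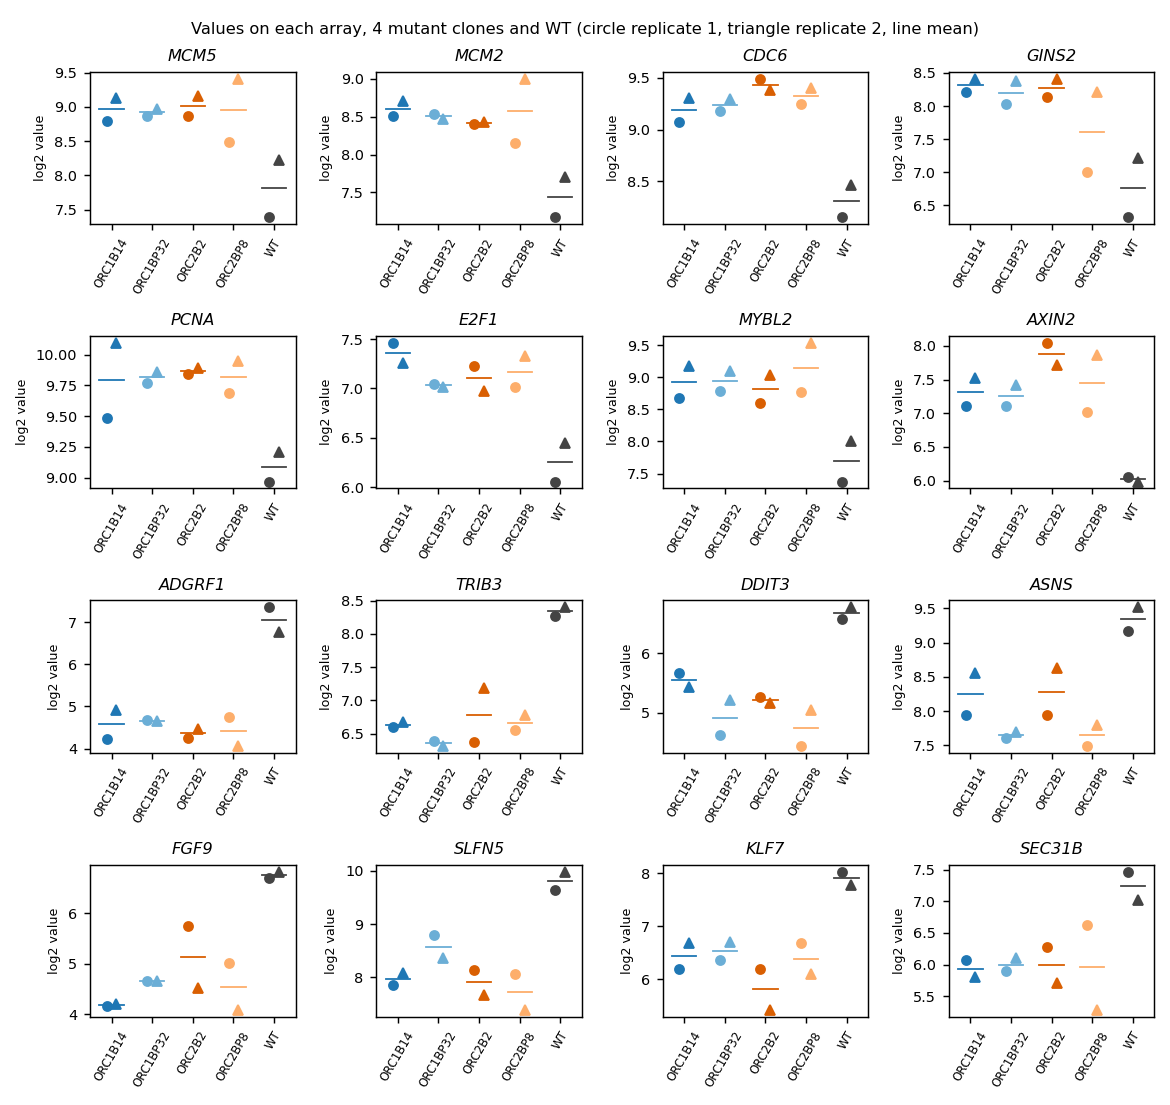
Log2 values of 16 genes on each array, with the 4 mutant clones left and WT right, replicate 1 as circles, replicate 2 as triangles and a line at each mean. In the replication genes shown every mutant array is above both WT arrays except ORC2BP8 replicate 1 of GINS2 at 7.01, and TRIB3, DDIT3 and ASNS are lower on every mutant array.

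Several genes of the integrated stress response were lower in the mutant clones. Of 18 tested members of the ATF4 list 5 fell and none rose (0), with a median change of -0.72, beside 1.29% lower of all genes. The median was -0.78 without WT replicate 1 and -0.46 without WT replicate 2. Among the clones the list median was largest in size for ORC2BP8 (-0.77) and smallest for ORC1B14 (-0.31). ORC2B2 had -0.54 and ORC1BP32 -0.58. The ORC1B14 median thus fell short of 0.5 of the pooled one, the share asked of single genes. The 5 called members each met that share in every clone, as did 302 of all 304 called genes, which the call largely fixes. TRIB3, a pseudokinase induced by ATF4, lay between 6.32 and 7.18 (median 6.58) on mutant arrays and at 8.28 and 8.40 on WT arrays. No mutant array came within 1 log2 unit of a WT array, and the change was -1.73 (SE 0.18, limma adjusted p = 0.00246). The clones lay between -1.99 in ORC1BP32 and -1.56 in ORC2B2, and the change was -1.80 within replicate 1 and -1.66 within replicate 2. DDIT3 encodes CHOP, a transcription factor induced under stress. DDIT3 lay between 4.45 and 5.67 (median 5.19) on mutant arrays and at 6.56 and 6.76 on WT arrays, a change of -1.55 (SE 0.25, limma adjusted p = 0.0149), -1.56 within replicate 1 and -1.54 within replicate 2. All 8 mutant arrays were below both WT arrays.

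Asparagine synthetase (ASNS) lay between 7.49 and 8.62 (median 7.87) on mutant arrays and at 9.17 and 9.51 on WT arrays, a change of -1.39 (SE 0.24, limma adjusted p = 0.0149), -1.43 within replicate 1 and -1.34 within replicate 2. All 8 mutant arrays were below both WT arrays, and the falls in ORC1BP32 (-1.69) and ORC2BP8 (-1.70) were larger in value than those in ORC1B14 (-1.09) and ORC2B2 (-1.06). PCK2, the mitochondrial phosphoenolpyruvate carboxykinase, fell by 1.09 and the serine synthesis enzyme PSAT1 by 0.92. ATF4 itself was at 9.42 to 10.004 on mutant arrays and at 9.94 and 10.22 on WT arrays, a change of -0.34 (limma adjusted p = 0.122). SESN2, at -0.89 (limma adjusted p = 0.0771), and DDIT4, at -1.14 (limma adjusted p = 0.143), had no call.

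Among the aminoacyl-tRNA synthetases, which load amino acids onto tRNAs, 3 of 17 tested genes fell and none rose (0), with a median of -0.29, beside 1.29% lower of all genes. The median was -0.16 without WT replicate 1 and -0.43 without WT replicate 2. The seryl enzyme SARS1 lay between 7.94 and 8.44 on mutant arrays and at 8.98 and 9.22 on WT arrays, a change of -0.87 (SE 0.14, limma adjusted p = 0.0149), -0.80 within replicate 1 and -0.93 within replicate 2. The glycyl enzyme GARS1 lay between 9.84 and 10.26 on mutant arrays and at 10.70 and 10.73 on WT arrays, a change of -0.67 (SE 0.12, limma adjusted p = 0.0154), -0.74 within replicate 1 and -0.61 within replicate 2. Neither pair of groups overlapped. The cysteinyl enzyme CARS1 changed by -0.67 (limma adjusted p = 0.0363) and lost its call also without the replicate block, with line as a random block, without ORC1BP32 replicate 1, ORC2B2 replicate 2 or ORC2BP8 replicate 2, at -0.73 to -0.61 over the alternatives.

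The ATF4 response element core TGATGNAA was searched for in the same way. Of the 8 called genes of these 2 lists 1 (12.5%) held it, against 3 of 21 uncalled members (14.3%), 111 of 8245 genes tested (1.35%) and 3.19% of all promoters of the table. The 1 gene was ASNS, whose match begins 68 bases before the start and is shown in capitals on the gene's strand.
ASNS, chr7:97872409-97872658, minus strand: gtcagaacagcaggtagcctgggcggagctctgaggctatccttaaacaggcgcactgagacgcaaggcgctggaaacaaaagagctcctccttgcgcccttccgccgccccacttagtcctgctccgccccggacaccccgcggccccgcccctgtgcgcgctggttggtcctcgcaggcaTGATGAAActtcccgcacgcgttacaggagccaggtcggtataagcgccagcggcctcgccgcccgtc

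The endoplasmic reticulum unfolded protein response list did not move in 1 direction. In it 4 of 10 tested genes were higher and 1 lower (median 0.15), beside 1.53% higher and 1.29% lower of all genes. The list has 20 genes, and the chaperones HSPA5, HSP90B1, PDIA4 and PDIA6 were among those not named on the array. The median was 0.00052 without WT replicate 1 and 0.26 without WT replicate 2. SDF2L1, a chaperone cofactor, lay between 6.67 and 7.35 (median 6.86) on mutant arrays and at 5.74 and 5.79 on WT arrays, and rose by 1.16 (SE 0.16, limma adjusted p = 0.0097), 1.13 within replicate 1 and 1.20 within replicate 2. ATF6, a membrane-bound transcription factor of the unfolded protein response, was narrowly spread at 9.02 to 9.17 on mutant arrays and lay at 9.51 and 9.78 on WT arrays, a change of -0.53 (SE 0.10, limma adjusted p = 0.0224), -0.43 within replicate 1 and -0.64 within replicate 2. Its change was nearly even, between -0.55 in both ORC1 clones and -0.51 in ORC2BP8. CRELD2 rose by 0.59, the chaperone CALR by 0.40 and the translocon subunit SEC61B by 0.52. CRELD2 lost its call also without ORC1BP32 replicate 1 or ORC2B2 replicate 2, at 0.55 to 0.65, and SEC61B (limma adjusted p = 0.0486) without either ORC1BP32 array, either ORC2B2 array, ORC1B14 replicate 2 or ORC2BP8 replicate 2, at 0.47 to 0.56. The list's count of 5 was 3 without the replicate block and 2 with line as a random block. It was 2 without ORC1BP32 replicate 1 or ORC2B2 replicate 2 and 3 without ORC1B14 replicate 2 or ORC2BP8 replicate 2. With a whole clone left out it was 1 without ORC2B2, 2 without ORC1BP32 or ORC2BP8 and 3 without ORC1B14.

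Cholesterol synthesis genes were higher where they were called, 3 of 18 tested, with none lower (0) and a median of 0.38, beside 1.53% higher of all genes. DHCR7, the enzyme of the last step, lay between 8.95 and 9.33 on mutant arrays and at 8.46 and 8.22 on WT arrays, a change of 0.77 (SE 0.12, limma adjusted p = 0.0123), 0.68 within replicate 1 and 0.85 within replicate 2. NSDHL, a sterol dehydrogenase, lay between 8.12 and 8.54 on mutant arrays and at 7.64 and 7.61 on WT arrays, a change of 0.74 (SE 0.13, limma adjusted p = 0.0153), 0.67 within replicate 1 and 0.80 within replicate 2. Both genes were higher on all 8 mutant arrays. INSIG1, which holds the SREBP regulators in the endoplasmic reticulum, changed by 0.66 (limma adjusted p = 0.0408). It lost its call also without the replicate block, with line as a random block, without ORC1BP32 replicate 1, either ORC2B2 array, ORC1B14 replicate 2 or ORC2BP8 replicate 2, at 0.57 to 0.71 over the alternatives. ACAT2, a cytosolic thiolase at the start of the mevalonate pathway and in no list, lay between 7.51 and 8.08 on mutant arrays and at 6.68 and 6.78 on WT arrays, a change of 1.02 (SE 0.15, limma adjusted p = 0.0103), 0.94 within replicate 1 and 1.10 within replicate 2.

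The largest called change was the fall of ADGRF1, an adhesion G protein-coupled receptor. ADGRF1 lay between 4.07 and 4.93 (median 4.56) on mutant arrays and at 7.36 and 6.76 on WT arrays, a change of -2.56 (SE 0.23, limma adjusted p = 0.00101). The clones lay between -2.70 in ORC2B2 and -2.40 in ORC1BP32, and the change was -2.88 within replicate 1 and -2.23 within replicate 2. The secreted growth factor FGF9 lay between 4.08 and 5.74 (median 4.59) on mutant arrays and at 6.71 and 6.83 on WT arrays. Its change was -2.14 (SE 0.32, limma adjusted p = 0.0112), -1.82 within replicate 1 and -2.46 within replicate 2. FGF19, a hormone-like growth factor of the intestine, lay between 7.36 and 7.98 (median 7.74) on mutant arrays and at 8.53 and 9.58 on WT arrays. Its change of -1.35 (SE 0.23, limma adjusted p = 0.0149) was -0.82 within replicate 1 and -1.88 within replicate 2, and its WT arrays lay further apart than its 8 mutant arrays. These 2 were the only calls among 22 tested growth factor and MAPK genes (median -0.38), beside 1.29% lower of all genes.

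Other large falls were spread over unrelated functions. SLFN5, a Schlafen family gene inducible by interferon, lay between 7.39 and 8.79 (median 8.07) on mutant arrays and at 9.64 and 9.99 on WT arrays, a change of -1.77 (SE 0.27, limma adjusted p = 0.0121), -1.43 within replicate 1 and -2.11 within replicate 2. It was the only call among 24 tested interferon-stimulated genes, whose median change was 0.20, with 0.63 within replicate 1 and -0.12 within replicate 2. The transcription factor KLF7 lay between 5.42 and 6.69 (median 6.28) on mutant arrays and at 8.03 and 7.78 on WT arrays, a change of -1.62 (SE 0.28, limma adjusted p = 0.0149), -1.67 within replicate 1 and -1.56 within replicate 2. ANKRD22, an ankyrin repeat gene, lay between 2.63 and 3.14 on mutant arrays, below the array median on all 8, and at 4.14 and 4.95 on WT arrays. It thus passed the filter for testing only through the 2 WT arrays, where it was high. Its change was -1.63 (SE 0.18, limma adjusted p = 0.00306), with -1.23 within replicate 1 and -2.04 within replicate 2. SEC31B, a paralogue of a COPII vesicle coat subunit, lay between 5.29 and 6.63 (median 5.99) on mutant arrays and at 7.47 and 7.02 on WT arrays. Its change of -1.27 (SE 0.21, limma adjusted p = 0.0149) was the most even among called genes, between -1.31 in ORC1B14 and -1.25 in ORC1BP32. It was -1.25 within replicate 1 and -1.30 within replicate 2. RBCK1, a subunit of the linear ubiquitin ligase complex and the neighbour of TRIB3 on chromosome 20, lay between 7.88 and 8.16 on mutant arrays and at 8.87 and 9.29 on WT arrays, a change of -1.05 (SE 0.14, limma adjusted p = 0.00715), -0.82 within replicate 1 and -1.27 within replicate 2. Without WT replicate 1 RBCK1 kept its call.

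Several of the lowest genes varied more between arrays. The ubiquitin ligase TRIM38 lay between 3.35 and 6.42 (median 4.13) on mutant arrays and at 6.43 and 6.83 on WT arrays. Its highest mutant array, ORC2B2 replicate 1, almost met the lower WT array, and its change of -2.20 (SE 0.51, limma adjusted p = 0.0416) was -1.30 within replicate 1 and -3.11 within replicate 2. The vesicle calcium sensor SYT1 lay between 4.76 and 6.81 (median 5.71) on mutant arrays and at 7.71 and 7.90 on WT arrays, a change of -2.02 (SE 0.43, limma adjusted p = 0.0338), -1.97 within replicate 1 and -2.07 within replicate 2. LURAP1L lay between 4.65 and 6.28 (median 5.54) on mutant arrays and at 6.73 and 7.88 on WT arrays, a change of -1.80 (SE 0.43, limma adjusted p = 0.0464), -1.13 within replicate 1 and -2.46 within replicate 2. The calls of TRIM38 and LURAP1L were also lost without either ORC1B14 array, ORC2B2 replicate 2 or ORC2BP8 replicate 2, and that of TRIM38 without ORC1BP32 replicate 1. The call of SYT1 was lost with line as a random block, without ORC1BP32 replicate 1 or ORC2B2 replicate 2, at -2.19 to -1.72 over the alternatives. The pseudogene ADAM20P1 overlapped between groups, at 3.67 to 5.41 on mutant arrays and 6.69 and 5.10 on WT arrays, with a change of -1.65 (SE 0.33, limma adjusted p = 0.0257), -2.16 within replicate 1 and -1.15 within replicate 2.

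Among higher genes outside replication, AXIN2, a WNT target that also restrains the WNT pathway, changed most of those that moved alike. AXIN2 lay between 7.02 and 8.04 (median 7.47) on mutant arrays and at 6.05 and 5.99 on WT arrays, a change of 1.46 (SE 0.24, limma adjusted p = 0.0149), 1.27 within replicate 1 and 1.64 within replicate 2. It was the only call among 14 tested WNT and stem cell genes, whose median was 0.01. The adhesion molecule MCAM lay between 5.00 and 5.98 (median 5.53) on mutant arrays and at 4.25 and 4.31 on WT arrays, a change of 1.24 (SE 0.24, limma adjusted p = 0.0223), 1.50 within replicate 1 and 0.98 within replicate 2. The membrane protein TMEM45A lay between 6.39 and 7.12 on mutant arrays and at 5.52 and 6.12 on WT arrays, a change of 1.06 (SE 0.18, limma adjusted p = 0.0149), 1.28 within replicate 1 and 0.85 within replicate 2. None of these 3 genes overlapped between groups. HSPA1A, a stress-inducible HSP70 chaperone, lay between 10.05 and 10.60 on mutant arrays and at 9.62 and 8.97 on WT arrays, a change of 1.05 (SE 0.18, limma adjusted p = 0.0149), with 0.71 within replicate 1 and 1.39 within replicate 2. HSPA1A and its neighbour HSPA1B are near-identical copies, so their values cannot be assigned to 1 of them with certainty.

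**Figure D4:**
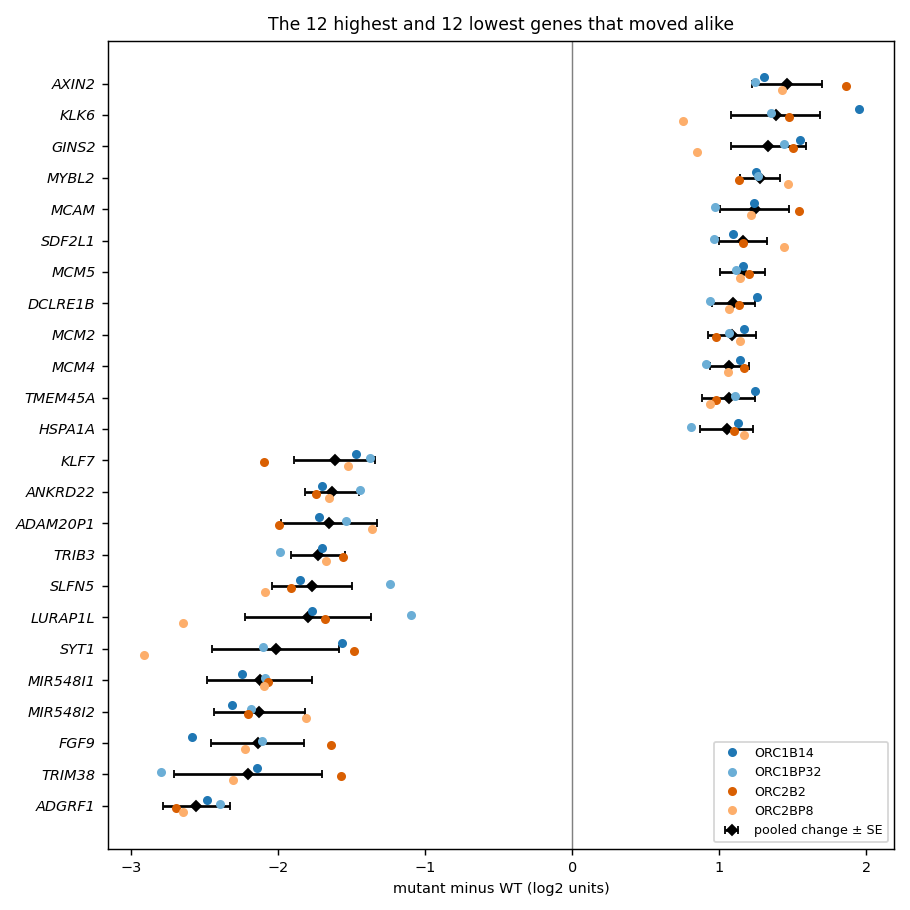
Pooled change ± SE (diamonds) and the change in each of the 4 clones (dots), mutant minus WT in log2 units, of the 12 highest and 12 lowest genes that moved alike. For ADGRF1 the 4 clones lie between -2.70 and -2.40, and for KLK6 they spread between 0.75 and 1.95.

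Of 431 tested genes named as miRNAs, 9 were lower (2.09%) and 0 higher, beside 1.29% lower and 1.53% higher of all genes. By name these probe sets belong to the precursor genes, and the mature miRNAs were not measured. The probe sets of MIR548I1 and MIR548I2 lay between 3.45 and 5.91 and between 4.16 and 5.94 on mutant arrays, against 7.30 and 6.25 and against 7.37 and 6.35 on WT arrays, with changes of -2.13 each. Neither overlapped between groups. They belong to a family of near-identical copies, so their values may not be separate. MIR221 lay between 8.34 and 9.91 (median 9.01) on mutant arrays and at 10.71 and 10.17 on WT arrays, a change of -1.32 (SE 0.28, limma adjusted p = 0.0338), -1.33 within replicate 1 and -1.31 within replicate 2. MIR181B1 lies inside MIR181A1HG, and they changed by -1.42 and -1.13. MIR616 lies inside DDIT3, changed by -1.20 and was below the array median on all 8 mutant arrays, so it passed the filter only through the WT arrays. Mature sequences from RefSeq (GRCh38.p14), 5′ to 3′ with the seed at bases 2 to 8 in capitals, show that these 3 precursors, singled out after their values were seen, share no seed.
hsa-miR-221-3p, chrX:45746180-45746202, minus strand: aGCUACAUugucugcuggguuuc
hsa-miR-181b-5p, chr1:198858925-198858947, minus strand: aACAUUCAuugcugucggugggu
hsa-miR-616-3p, chr12:57519183-57519204, minus strand: aGUCAUUGgaggguuugagcag
hsa-miR-616-5p, chr12:57519223-57519244, minus strand: aCUCAAAAcccuucagugacuu

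The mitosis, ATF4, tRNA synthetase, endoplasmic reticulum and cholesterol lists had 0 calls without either WT array. Most other lists held few calls. None of the members (0) was called in 9 lists, beside 2.82% of all genes tested. They were those of MHC class I (4 tested), NF-kB (8), epithelial junction (22), mesenchymal (6), TGF-beta (13), glycolysis (13), MYC (12), heterochromatin (20) and centrosome genes (14). At that overall share, 0 calls in lists this small says little. In the TGF-beta list 5 of 13 genes had all mutant arrays above both WT arrays, beside 7.96% of all genes tested. KRT80 was the only call among 12 tested keratin genes, whose median was 0.57. The keratin-associated gene KRTAP2-3 had the largest positive change of all genes tested, 2.50 (SE 0.68), but spread between 6.52 and 9.66 on mutant arrays, against 5.80 and 6.01 on WT arrays, and had no call (limma adjusted p = 0.0670). The matrix protein THBS1, a TGF-beta pathway member, likewise had a change of 1.71 (SE 0.47) without a call (limma adjusted p = 0.0670).

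The last question was how alike the 4 clones were. An F test over the contrasts among the clones in limma called 154 of 10797 genes (1.43%), and 3 of the 304 genes called against WT (0.987%). Its contrasts leave WT out, but the WT arrays enter the fit that gave the residual spread. The spread between clones is part of the residual of the pooled test, so a gene whose clones differ widely is less readily called there. The 3 genes were ANTXR2 (limma adjusted p = 0.0268), KLK6 (limma adjusted p = 0.0353) and KRT80 (limma adjusted p = 0.0478). ANTXR2, an anthrax toxin receptor, changed by -1.61 (ORC1B14), -0.67 (ORC1BP32), -1.63 (ORC2B2) and -1.84 (ORC2BP8). The keratin KRT80 changed by 2.06, 1.75, 0.84 and 2.31 in the same order, and the secreted protease KLK6 by 1.95, 1.35, 1.48 and 0.75. ANTXR2 and KRT80 stayed just short of 0.5 of the pooled change in 1 clone each and were the 2 called genes that did not count as moving alike, while KLK6 was just past it.

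KLK6 lay between 8.24 and 10.39 (median 9.56) on mutant arrays and at 8.39 and 7.79 on WT arrays, with ORC2BP8 replicate 2 below WT replicate 1. The pooled calls of KLK6 (1.38), KRT80 (1.74) and ANTXR2 (-1.44) also lapsed without the replicate block, with line as a random block, without ORC1B14 replicate 2, and each without 1 or more further mutant arrays, at 1.20 to 1.59, 1.34 to 2.13 and -1.69 to -1.25 over the alternatives. ADGRG6, an adhesion receptor like ADGRF1, changed between -1.50 in ORC1B14 and -0.59 in ORC2B2, a pooled change of -1.01 (limma adjusted p = 0.0486) that lapsed without the replicate block, with line as a random block, without ORC1BP32 replicate 1, ORC1B14 replicate 2 or ORC2BP8 replicate 2. Over the 304 called genes the ratio of the smallest to the largest clone change lay between 0.362 and 0.952, with a median of 0.692. The median size of the change was 0.78 for ORC1B14, 0.74 for ORC1BP32, 0.74 for ORC2B2 and 0.79 for ORC2BP8. Each clone set singly against the same WT arrays gave 496 calls (4.59%) for ORC1B14, 57 (0.528%) for ORC1BP32, 251 (2.32%) for ORC2B2 and 402 (3.72%) for ORC2BP8 by limma. Between ORC1 and ORC2 clones limma called 58 of all genes (0.537%).

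**Figure D5:**
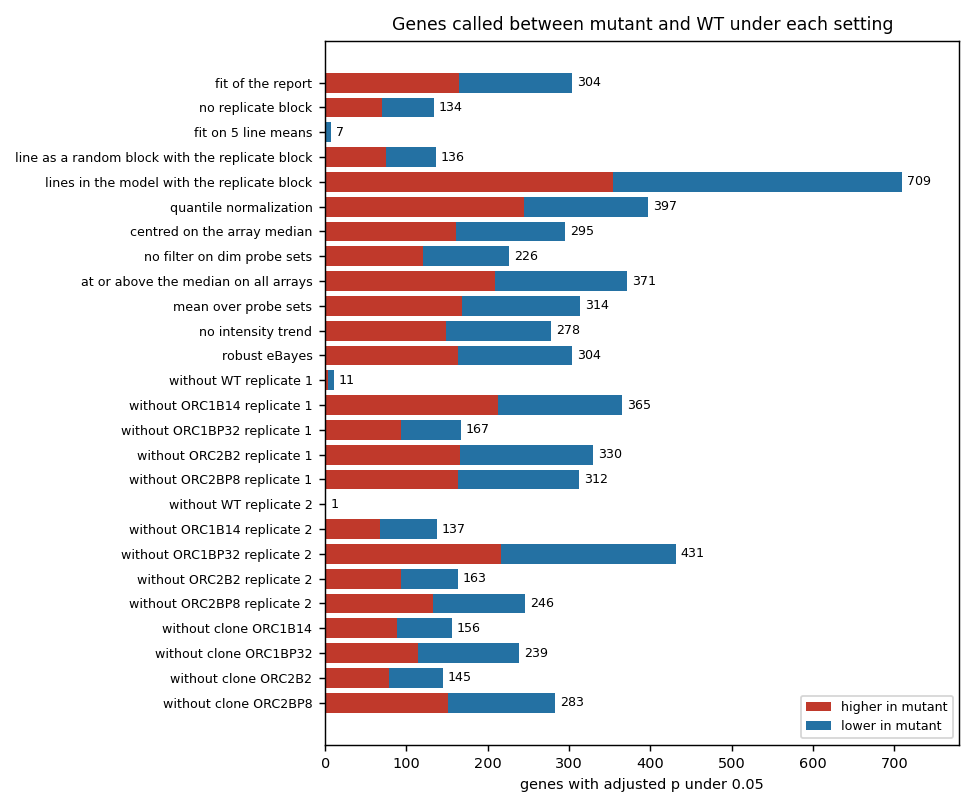
Number of genes called between mutant and WT arrays by limma at an adjusted p under 0.05 (horizontal axis) under each setting, split into higher and lower in mutant. The bars fall to 1 and 11 genes when WT replicate 2 or WT replicate 1 is left out and to 7 when each line counts as 1 sample, and reach 709 with the 5 lines in the model.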

How the data were processed

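RNA from 5 lines of HCT116, with 2 arrays each, was hybridised to Affymetrix arrays. The deposited table holds log2 expression values of all probe sets on each array. Affymetrix Expression Console was used, per the submitters' processing notes, and the log base was read from the values, which lie between 1.45 and 13.7. Normalization and array annotation were not given in the sources used here, nor was a genome build, and no further scaling was applied. Arrays give no read depth, so precision is limited by how many there are.

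Probe sets were named through the platform annotation, with exactly 1 symbol for 16098, several for 0 and none for 37519, though these may still have a gene. Gene IDs of all 16098 were found in RefSeq (GRCh38.p14), with 0 symbols updated. A gene was tested when its probe set (of several, the highest on average) lay at or above the array median on at least 2 arrays. R 4.3.3 with limma 3.58.1 fitted the replicate number and mutant or WT to all 10 arrays, with eBayes and an intensity trend (7 residual and 5.09 prior degrees of freedom). A second fit with the 5 lines gave the change in each clone, the F test among clones and the ORC1 against ORC2 clones (4 residual and 6.70 prior degrees of freedom). Benjamini-Hochberg adjustment was over 10797 genes, two-sided. The fits were run on simulated data with independent noise on each array, the same shift on all mutant arrays and no spread between lines. That setting cannot probe the reliance on 1 WT line or on arrays of the same clone. Tables and promoters were handled in Python 3.11.15 with pandas 2.3.3.

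The members and the 24 gene lists, with 586 genes of which 375 were named and 346 tested, were chosen with earlier results of these data known, and lists are described only by counts and medians. Named by rule are the 12 highest and 12 lowest genes that moved alike, the 4 higher and 4 lower ones with the most even clone changes among those of at least 1 log2 unit, up to 3 called genes per list and direction, the 4 called genes with the largest F, and the markers. Other genes and families in the text were chosen after their values were seen. The histone list had 0 named genes.

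The block is part of how the comparison was defined. Deviations of same-numbered arrays correlated over 0.1 in 9 of 10 pairs of lines (0.0812 to 0.568), so the numbers did not meet the rule for pairing. Alternatives were no block, line means, line as a random block, lines in the model, quantile normalization, centring, other filters, the mean over probe sets, no trend, robust eBayes and leaving out each array or clone.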

Additional observations from a re-analysis of the deposited data

Results flagged for a closer look

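Each of the 52 genes named by rule was looked at for a mutant array far from the other 7, and 3 had one. Chance gives about 1 such array in 20 groups. GINS2 stood at 7.01 on ORC2BP8 replicate 1, while the nearest mutant array was at 8.03. ADAM20P1 stood at 5.41 on ORC2BP8 replicate 1, and the nearest mutant array was at 4.46. KLF7 stood at 5.42 on ORC2B2 replicate 2, with the nearest mutant array at 6.09.

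Probe sets without a gene name stood outside the comparisons above. When all 29383 probe sets that passed the filter were tested together, 190 of the 17829 unnamed ones (1.07%) were called by limma between mutant and WT arrays, 60 higher and 130 lower. All 190 moved alike in the 4 clones, which the call largely fixes. Probe set 16965713 averaged 4.16 on mutant arrays and 6.47 on WT arrays, a change of -2.31 (SE 0.21, limma adjusted p = 0.00696). Probe set 16761350 changed by -2.13, and probe sets 16913341 and 17016366 by 1.53 and 1.32.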

How the results depend on the processing

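The count of 304 called genes was 134 without the replicate block, with 21 in place of 154 genes that differ among clones. It was 7 on 5 line means, 136 with line as a random block (correlation of arrays of a line 0.125) and 709 with the lines in the model. Leaving out 1 array gave 1 to 431 called genes. Without clone ORC1B14 it was 156 and without clone ORC2B2 145. Genes that moved alike numbered 134 without the block, 7 on line means, 136 with the random block, 586 with the lines in the model, 1 to 414 without 1 array, 156 without clone ORC1B14 and 145 without clone ORC2B2. Genes that differ among clones numbered 38 to 141 without 1 array and 27 without clone ORC2BP8. Line means leave fewer samples, and the cause of the other shifts was not tested.

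Under quantile normalization, centring, other filters, the mean over probe sets, no trend and robust eBayes, called genes numbered 226 to 397. A share of 0.75 in place of 0.5 left 239 genes that moved alike, and the sign alone left 304. Of 1294 values of the 52 named genes under alternatives, 1014 stayed on the same side of the threshold, 280 lost the call and 0 reversed. All 52 kept their call after quantile normalization and 37 without the block. ANKRD22, which passed the filter only through the WT arrays, could not be tested in 3 settings. Of 104 values within 1 replicate number, 0 reversed, which the choice of called genes largely fixes.

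The limits are 2 arrays of 1 WT line, arrays of a clone that are not independent clones, and named probe sets for 0 of the 6 ORC genes.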

Other observations

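Some gene families outside the lists held several calls. These families were chosen after the values were seen and are described without a test, beside 1.53% higher and 1.29% lower of all genes tested. Of 15 tested heat shock genes 5 were higher and 0 lower, with a median change of 0.40 (0.32 within replicate 1 and 0.43 within replicate 2). Besides HSPA1A these were HSPA1B (0.997), the HSP110 chaperone HSPH1 (0.94), the small heat shock protein HSPB1 (0.61) and the co-chaperone BAG3 (0.50). HSPH1 lay between 9.63 and 10.38 on mutant arrays and at 9.59 and 8.70 on WT arrays, so its change was 0.36 within replicate 1 and 1.51 within replicate 2. Of 16 tested Kruppel-like factors, a family of zinc finger transcription factors, 4 were lower and 0 higher, namely KLF7, KLF9 (-1.10), KLF15 (-0.86) and KLF3 (-0.84). The family as a whole had a median change of -0.16 (-0.24 within replicate 1 and 0.09 within replicate 2), and 7 of the 16 changes were above 0. KLF9 lay between 4.73 and 5.80 on mutant arrays and at 6.53 and 6.55 on WT arrays, and changed by -1.10 within replicate 1 and -1.10 within replicate 2. Of 10 tested adhesion receptors 3 were lower, ADGRF1, ADGRG6 and ADGRV1 (-0.92), with a family median of -0.37 and 3 of the 10 changes above 0. Among 6 tested cell division cycle associated genes 3 were higher and all 6 changes were above 0, beside 5980 of all 10797 genes tested. Nucleoporins had 3 higher of 21 and mitochondrial ribosomal proteins 3 higher of 73, the smallest of these shares.

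Calls by chromosome were not tested against an even spread, and were set beside 1.53% higher and 1.29% lower overall. The split by direction varied. Chromosome 4 had 0 higher and 13 lower genes of 383 tested, chromosome 22 had 8 higher and 0 lower of 281, and chromosome 19 had 21 higher and 3 lower of 833. Chromosome 20 had the highest share called, 12 higher and 4 lower of 318, and chromosome 18 had 1 higher and 5 lower of 148. The median change was -0.06 on chromosome 4, 0.10 on chromosome 22 and 0.13 on chromosome 19. Neighbouring genes (by the order of RefSeq genes in GRCh38.p14) were called in the same direction in 12 pairs. They include TRIB3 with RBCK1, GARS1 with its divergent transcript GARS1-DT, MCAM with RNF26, NUP85 with MRPS7, and CDCA3 with USP5. Pairs such as DDIT3 with MIR616, MIR181A1HG with MIR181B1, HSPA1A with HSPA1B and GOLGA6L10 with GOLGA6L9 overlap or are near-identical, so their signals cannot be told apart.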
